A study of Mus musculus with 72 samples.

Results

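The 9 genes described here encode receptors of the pituitary, which apart from the ghrelin receptor Ghsr receive its main hypothalamic signals. Their symbols are Ghrhr, Ghsr, Trhr, Crhr1, Gnrhr, Drd2, Sstr2, Sstr5 and Avpr1b. They were chosen by name, as the rows of the count table whose Ensembl identifier carries 1 of these symbols, and make up 9 of the 55416 rows. RNA-seq libraries were made from the whole pituitary, the epididymal white adipose tissue (eWAT) and the liver of 24 male mice, and the receptors are followed in the 24 pituitaries. All mice were of the FVB.129P2 strain, an FVB line that keeps its sight. FED-CTRL and FED-HFD mice were sons of dams with free access to food, while CR20-CTRL and CR20-HFD mice were sons of dams that received 20% less food from embryonic day 15 to weaning on postnatal day 21. From 8 weeks of age the CTRL groups ate a diet with 10% fat and the HFD groups a diet with 45% fat, for 10 weeks as the study's methods give it, while the sample labels give 10 or 16 weeks. Each group held 6 mice, and the 4 groups hold different mice. The labels do not tie the mice to dams or litters, so p-values measure the spread between mice, some of which may be littermates.

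Neurons of the hypothalamus release peptides and dopamine into the portal blood of the pituitary. Each receptor except Ghsr, whose ligand is ghrelin, places 1 or more of the hormone-secreting cell types under their control. All of these receptors couple to G proteins. The receptors for growth hormone releasing hormone (Ghrhr) and corticotropin releasing hormone (Crhr1) raise cyclic AMP, those for ghrelin (Ghsr), thyrotropin releasing hormone (Trhr), gonadotropin releasing hormone (Gnrhr) and vasopressin (Avpr1b) act mainly through phospholipase C and calcium, and those for dopamine (Drd2) and somatostatin (Sstr2 and Sstr5) lower cyclic AMP and restrain secretion.

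Total counts of the pituitary libraries ranged from 18299494 to 27601208 (median 21931340.5), so that the detection limit of 3 counts stood at 0.109 to 0.164 CPM, the count relative to the size of its library. This limit takes in counting error alone. Growth hormone (Gh) alone took 20.7 to 32.9% of the counts. Defining genes of the somatotrophs, lactotrophs, thyrotrophs, corticotrophs and melanotrophs had counts in each group, while gonadotrophs are seen here through Fshb and Nr5a1. Lhb, the beta subunit of luteinizing hormone, is split over 2 Ensembl genes of that name, of which 1 lies with all its 678 exonic bases inside the other and had 0 counts in the 24 libraries, and the other had 2 to 17. How reads shared by 2 genes were counted is not given in the sources used here, so these counts are not read as the level of Lhb. Markers of neighbouring or foreign tissue were low in most libraries, with hepatocyte sums of at most 3.68 CPM, while 1 FED-HFD library (mouse 10) had 45.65 CPM of adipocyte markers, 1 FED-HFD library (mouse 13) had 13920 CPM of erythroid markers, and 1 CR20-HFD library (mouse 6) had 34.46 CPM of trigeminal ganglion markers.

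Each receptor passed the filter on low counts and was tested among 16657 genes. To compare genes, levels were divided by exonic length and given as RPKM, a CPM per kilobase of exon. Drd2, the dopamine receptor of lactotrophs and melanotrophs, was the most abundant, with a median of 68.7 RPKM over the 24 mice and a range of 54.1 to 86.5. Ghrhr, which marks the somatotrophs, came next at 53.7 RPKM (32.0 to 70.0) and lay below Drd2 in 23 of 24 mice. Gnrhr, the receptor of the gonadotrophs, had 16.2 RPKM (10.4 to 24.8), and its range touched neither that of Ghrhr above it nor that of Crhr1 below it. These 3 transcripts therefore had an order that held in nearly every pituitary.

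The middle of the order was less clear. Crhr1 had a median of 5.54 RPKM (4.69 to 7.22), Sstr5 of 4.70 RPKM (2.47 to 6.92) and Avpr1b of 4.36 RPKM (2.92 to 6.31). Crhr1 was above Sstr5 in 16 of 24 mice and Sstr5 above Avpr1b in 16 of 24, and the ranges of these neighbours overlapped. Sstr2 followed at 1.21 RPKM (0.510 to 3.95), below Avpr1b in 23 mice. At the lower end, Trhr had 0.470 RPKM (0.242 to 0.748) and Ghsr 0.263 RPKM (0.130 to 0.654), with Trhr above Ghsr in 18 of 24 mice. The medians of the most and the least abundant receptor differed 261.7-fold.

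**Figure D1:**
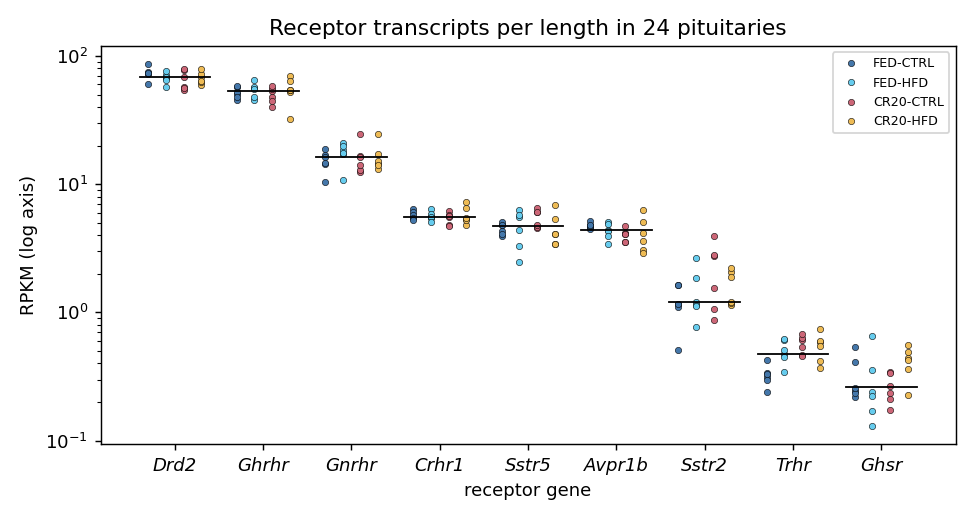
Levels of the 9 receptor transcripts in RPKM on a log axis, with 1 point per pituitary coloured by group and a line at the median of all 24 mice. Drd2 and Ghrhr lie near the top at medians of 68.7 and 53.7 RPKM, and Trhr and Ghsr at the bottom at 0.470 and 0.263 RPKM.

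The spread between mice was not the same for all receptors. Over the 24 mice, the coefficient of variation of the CPM was 10.6% for Crhr1, 12.2% for Drd2 and 15.5% for Ghrhr, where counting error alone would give 4.57%, 1.45% and 1.58%. It was 17.6% for Avpr1b, 22.5% for Gnrhr and 23.5% for Sstr5. The 3 rarest receptors varied most, with 28.1% for Trhr, 42.7% for Ghsr and 49.5% for Sstr2, against a counting error of 15.2%, 15.5% and 11.4%. Trhr rested on 21 to 65 counts per library, Ghsr on 15 to 88 and Sstr2 on 26 to 189, so that differences in these genes are measured with less precision than in the others.

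The positions of the genes on GRCm39 are chromosome 6 from 55353280 to 55365515 for Ghrhr (ENSMUSG00000004654, plus strand), chromosome 3 from 27425356 to 27433382 for Ghsr (ENSMUSG00000051136, plus strand) and chromosome 15 from 44059483 to 44099315 for Trhr (ENSMUSG00000038760, plus strand). Crhr1 (ENSMUSG00000018634) lies on chromosome 11 from 104023164 to 104066351 on the plus strand, and Sstr2 (ENSMUSG00000047904) on the same chromosome and strand from 113510145 to 113516862. Gnrhr (ENSMUSG00000029255) lies on chromosome 5 from 86327472 to 86345760 on the minus strand, and Sstr5 (ENSMUSG00000050824) on chromosome 17 from 25708847 to 25733577 on the minus strand. Drd2 (ENSMUSG00000032259) is found on chromosome 9 from 49251654 to 49319477 and Avpr1b (ENSMUSG00000026432) on chromosome 1 from 131526977 to 131539738, both on the plus strand. Counts were taken over exons. Drd2 shares 240 exonic bases with a long noncoding RNA on the other strand and Sstr5 shares 138 with 1 on its own strand, and since the strand setting of the counting is not given in the sources used here, the reads of these bases cannot be told apart.

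The 100 bases before the transcript start of 3 receptors are shown in GRCm39, the annotated canonical start being that of GENCODE M39. Trhr and Sstr2 are shown because they had the largest log2 fold changes between 2 groups, and Gnrhr because it is the other receptor with a motif match. Each line reads 5′ to 3′ on the strand of the gene, and capitals mark the letters TGACG, the core of the cAMP response element, read on either strand.
Trhr, chr15:44059383-44059482, plus strand: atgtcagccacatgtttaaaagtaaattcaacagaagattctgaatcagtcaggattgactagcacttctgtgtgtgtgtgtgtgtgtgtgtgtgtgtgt
Sstr2, chr11:113510045-113510144, plus strand: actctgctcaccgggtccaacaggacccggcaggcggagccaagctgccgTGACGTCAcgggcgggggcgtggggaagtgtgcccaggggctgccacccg
Gnrhr, chr5:86345761-86345860, minus strand: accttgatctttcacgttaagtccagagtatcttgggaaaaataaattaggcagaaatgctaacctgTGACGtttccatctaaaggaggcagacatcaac
In the 250 bases before the start, TGACG on either strand was found in 2 of the 9 receptors, Sstr2 and Gnrhr, and in 18.0% of the 21770 promoters of protein-coding genes. The Sstr2 window holds it on both strands in overlapping positions. The letters TATNCAT, which POU1F1-type factors bind, were found in 0 of 9 receptors and in 7.18% of promoters, and AAGGTCA, which NR5A1-type factors bind, in 0 of 9 and in 3.93%. These are matches of letters in a fixed window, and the motifs were chosen after the counts had been seen.

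The effect of the maternal diet on mice that ate the control diet was read from CR20-CTRL vs FED-CTRL. Trhr and Sstr2, 2 of the 9 receptors, had an unadjusted p-value under 0.05 there, both higher in CR20-CTRL, and 17.3% of all 16657 genes had such a p-value, so that the count of receptors is close to what genes in general gave. With the p-values adjusted over all genes, 0 of the 9 receptors and 0.0% of all genes passed 0.05 by edgeR's quasi-likelihood test. The median log2 fold change (log2FC) was -0.05 over the receptors and 0.01 over all genes.

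Trhr, through which thyrotropin releasing hormone acts on thyrotrophs, stood at 0.979, 1.31 and 1.71 CPM (lowest, median and highest of 6 mice) in FED-CTRL and at 1.85, 2.32 and 2.76 CPM in CR20-CTRL. Every CR20-CTRL mouse was above every FED-CTRL mouse, which held for 0.396% of all genes. The HFD groups lay in between or overlapped CR20-CTRL, with 1.39, 1.98 and 2.53 CPM in FED-HFD and 1.48, 2.29 and 3.03 CPM in CR20-HFD.

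In CR20-CTRL vs FED-CTRL, the log2FC of Trhr was 0.80 (standard error 0.200, 95% confidence interval 0.39 to 1.21). The edgeR p-value was 0.000393 unadjusted and 0.0725 adjusted, and the exact permutation p-value of 0.00216 is the smallest that 6 mice against 6 allow. In a refit made here with limma's voom and quality weights, the method that the study names, the adjusted p-value of Trhr was 0.0462. Trhr was called in that refit among 1.7% of all genes. The study itself reported that no pituitary gene differed between groups at an adjusted p-value under 0.05. The reason for this discrepancy was not tested. Trhr was also called by edgeR without FED-CTRL mouse 42 (adjusted p = 0.0372) and without CR20-CTRL mouse 4 (adjusted p = 0.0447), while without any other mouse of these groups the adjusted p-value lay between 0.0625 and 0.235. The log2FC itself stayed between 0.71 and 0.88.

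In the sons of FED dams, Trhr also lay above FED-CTRL in mice on the HFD. Its log2FC against FED-CTRL was 0.63 (standard error 0.202, edgeR adjusted p = 0.278, two-sided exact permutation p = 0.00433), with 6 of 6 FED-HFD mice above the FED-CTRL median. Both comparisons use the same 6 FED-CTRL mice, so that they are not independent of each other. Trhr was the only receptor with an unadjusted p-value under 0.05 in FED-HFD vs FED-CTRL, against 9.64% of all genes, and 0.0% of all genes passed the adjusted threshold. In the same comparison, 4 of the 5 immune markers (Ptprc, Csf1r, C1qa, C1qb and Cd74) had an unadjusted p-value under 0.05 and were higher with the HFD, as were 4.41% of all genes. Their summed level was 1076 to 1503 CPM in FED-CTRL and 1548 to 2707 CPM in FED-HFD, and its part in the Trhr difference was not tested.

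Between the groups that did not include FED-CTRL, Trhr differed little. Its log2FC was -0.05 in CR20-HFD vs CR20-CTRL (edgeR adjusted p = 0.964) and 0.11 in CR20-HFD vs FED-HFD (adjusted p = 0.953). The interaction, which is the HFD response of CR20 mice minus that of FED mice, was -0.68 for Trhr (standard error 0.279, edgeR adjusted p = 0.388). Trhr was the receptor with an interaction p-value under 0.05, where 11.0% of all genes had one and 0.0% passed after adjustment. Over both diets, CR20 mice had a Trhr log2FC of 0.46 against FED mice (edgeR adjusted p = 0.226), and over both maternal groups the HFD had one of 0.29 (adjusted p = 0.789).

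In bulk tissue, fewer cells of a type and less RNA per cell cannot be told apart. The summed CPM of the thyrotroph markers Tshb and Dio2 ranged from 150.7 to 243.3 in FED-CTRL and from 170.3 to 217.5 in CR20-CTRL, so that these ranges overlapped. Tshb itself, the beta subunit of thyrotropin, had 184 ± 32.8 CPM (SD, n = 6) in FED-CTRL, 192 ± 22.8 in FED-HFD, 162 ± 19.0 in CR20-CTRL and 181 ± 18.7 in CR20-HFD. Across the 24 mice, with the group means removed, Trhr and Tshb had a Pearson correlation of 0.01. In serum, the study reported lower thyrotropin in sons of CR20 dams on either diet, which is secreted protein and not transcript.

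**Figure D2:**
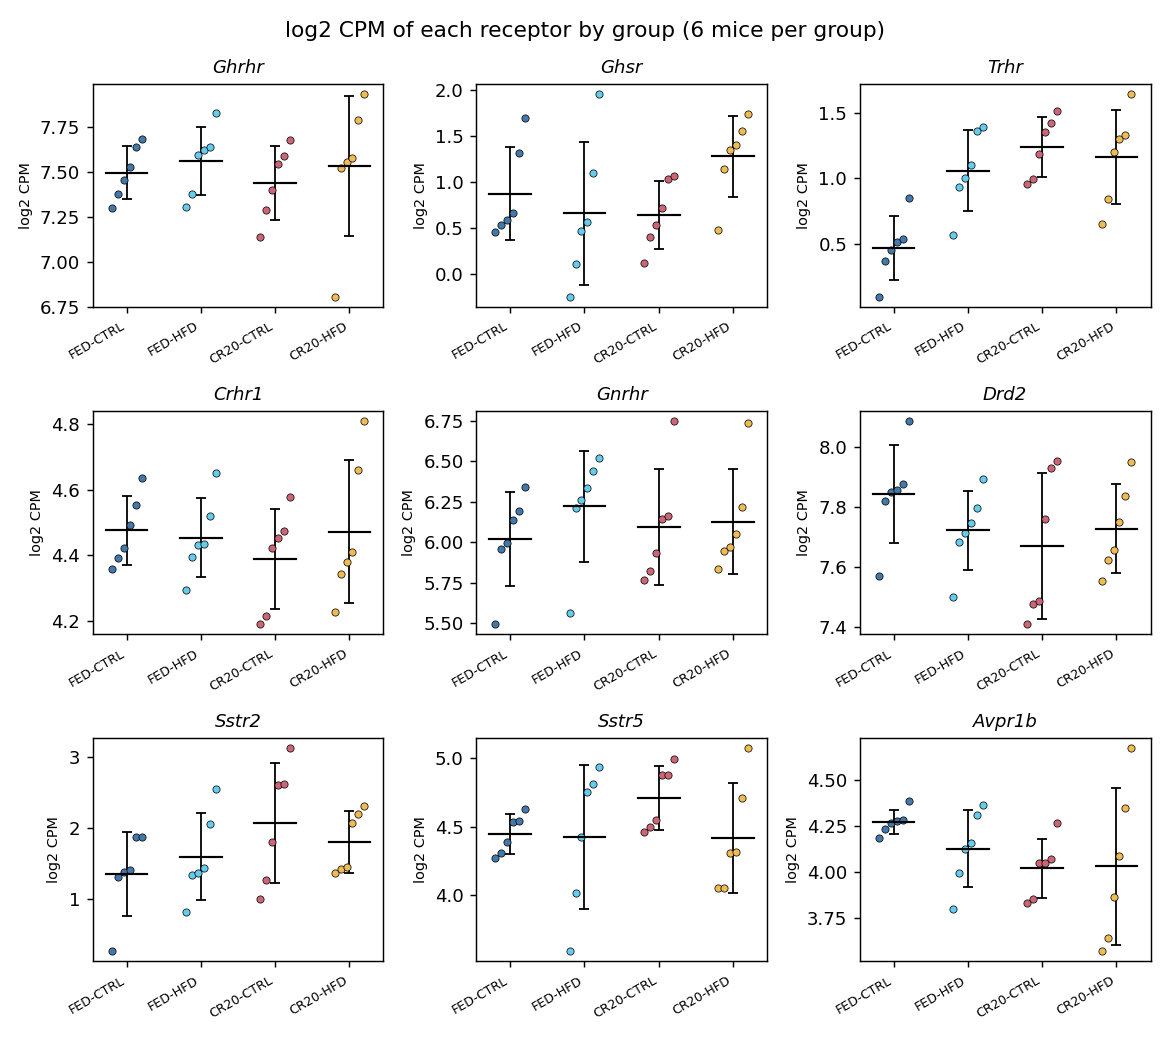
The log2 CPM of each receptor in the 4 groups, with 1 point per mouse, a line at the group mean and a bar of 1 SD (6 mice per group). Trhr is the panel in which the CR20-CTRL points lie wholly above the FED-CTRL points, while the groups of the other 8 receptors overlap in this comparison.

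Sstr2 and Sstr5, the somatostatin receptors that restrain growth hormone and thyrotropin secretion, had positive log2FC values in the same comparison, neither of them past the adjusted threshold. Sstr2 stood at 1.11, 2.53 and 3.58 CPM (lowest, median, highest) in FED-CTRL, at 1.67, 2.55 and 5.75 in FED-HFD, at 1.90, 4.69 and 8.60 in CR20-CTRL and at 2.48, 3.36 and 4.85 in CR20-HFD. The groups overlapped widely, and the CR20-CTRL mice were spread from below the FED-CTRL median to far above its highest mouse. The log2FC of Sstr2 in CR20-CTRL vs FED-CTRL was 0.85 (standard error 0.321, 95% confidence interval 0.19 to 1.50, edgeR p = 0.0132, adjusted p = 0.181), and 4 of 6 CR20-CTRL mice were above the FED-CTRL median (exact permutation p = 0.119). Without CR20-CTRL mouse 33 it was 0.57 (adjusted p = 0.395), and without CR20-CTRL mouse 4 it was 1.01 (adjusted p = 0.0781).

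Over both diets, the Sstr2 log2FC of CR20 against FED mice was 0.50 (edgeR adjusted p = 0.344). Sstr2 and Trhr were the 2 receptors with an unadjusted p-value under 0.05 in this comparison, against 13.2% of all genes, and 0.0% of genes passed after adjustment. For Sstr5, the medians were 22.0 CPM in FED-CTRL, 24.2 in FED-HFD, 26.3 in CR20-CTRL and 19.8 in CR20-HFD. In CR20-CTRL vs FED-CTRL, 5 of 6 mice were above the FED-CTRL median of Sstr5, with a log2FC of 0.27 (standard error 0.176, edgeR adjusted p = 0.435, exact permutation p = 0.0476). The exact p-value of Sstr5 is not adjusted for the 9 receptors and 4 comparisons in which it was taken.

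Ghsr, the ghrelin receptor of somatotrophs, had the largest log2FC of the 9 receptors with the HFD in CR20 mice. Its CPM was 1.28, 1.45 and 3.15 (lowest, median, highest) in FED-CTRL and 0.753, 1.34 and 3.79 in FED-HFD. In the CR20 groups it was 1.00, 1.45 and 2.01 in CR20-CTRL and 1.31, 2.51 and 3.24 in CR20-HFD. The CR20-HFD mice lay mostly above the CR20-CTRL mice, but the groups overlapped, and FED-HFD held both the lowest and the highest value of all 24 pituitaries.

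Between CR20-HFD and CR20-CTRL, the log2FC of Ghsr was 0.67 (standard error 0.308, 95% confidence interval 0.04 to 1.30, edgeR p = 0.0370, adjusted p = 0.666), and 5 of 6 CR20-HFD mice were above the CR20-CTRL median (exact permutation p = 0.0238). Ghsr was the only receptor with an unadjusted p-value under 0.05 in this comparison, where 7.28% of all genes had one and 0.0% passed after adjustment. The interaction of Ghsr was 0.77 (edgeR adjusted p = 0.522), so that an unequal HFD response of the 2 maternal groups was not shown for this gene. It was 1.18 without FED-HFD mouse 23 (adjusted p = 0.316) and between 0.57 and 0.90 without any other mouse. In CR20-HFD vs CR20-CTRL, 3 of the 5 immune markers also had an unadjusted p-value under 0.05 and were higher with the HFD, against 2.74% of all genes, with sums of 966.4 to 1762 CPM in CR20-CTRL and 1471 to 2224 CPM in CR20-HFD. Both tested hepatocyte markers were lower at such a p-value, against 4.53% of all genes, with sums of the 3 markers of 1.146 to 3.682 CPM in CR20-CTRL and 0.1064 to 1.552 CPM in CR20-HFD. The part of either in the Ghsr difference was not tested.

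Ghsr also moved with the animal numbers of the labels, which fall into the ranges under 20, 20 to 39 and 40 and above. What these ranges stand for is not stated, and each holds mice of the 4 groups. Ghsr had a mean of 1.30 CPM (0.753 to 2.12) in the 11 mice numbered under 20, 2.38 CPM (1.23 to 3.79) in the 5 mice of the middle range and 2.35 CPM (1.55 to 3.24) in the 8 mice numbered 40 and above. In a fit of group and range together, the 2 upper ranges were 0.80 and 0.90 log2 units above the lowest (edgeR adjusted p = 0.00593), and 6.91% of all genes passed this test. Ghsr was the 1 receptor that did so, with Crhr1 (adjusted p = 0.136) and Drd2 (adjusted p = 0.145) next.

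Within each range, the mean Ghsr of CR20-HFD was above that of CR20-CTRL. The means were 1.18 CPM in CR20-CTRL and 1.71 in CR20-HFD under 20, 1.23 and 2.70 from 20 to 39, and 1.84 and 2.85 from 40, with 1 to 3 mice behind each. With the range as a covariate the log2FC was 0.68 (standard error 0.234, edgeR adjusted p = 0.448). Trhr was treated in the same way. Its means in FED-CTRL and CR20-CTRL were 1.28 and 1.88 CPM under 20, 0.979 and 2.46 from 20 to 39, and 1.52 and 2.51 from 40, and in FED-HFD they were 1.79, 2.48 and 2.53. With the range as a covariate, the log2FC of Trhr was 0.75 in CR20-CTRL vs FED-CTRL (edgeR adjusted p = 0.0723) and 0.66 in FED-HFD vs FED-CTRL (adjusted p = 0.207).

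**Figure D3:**
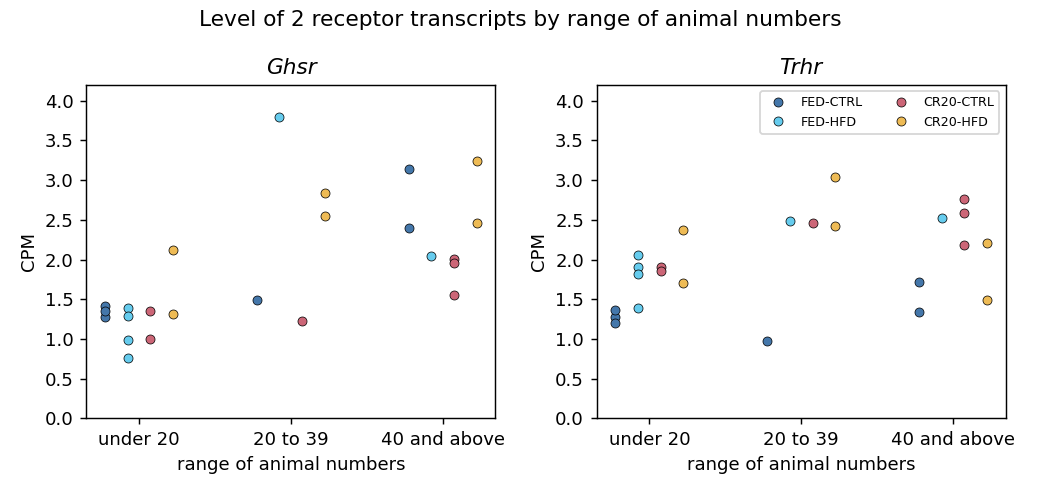
CPM of Ghsr (left) and Trhr (right) in the 3 ranges of animal numbers, with 1 point per mouse coloured by group. The Ghsr points under 20 lie at 0.753 to 2.12 CPM and those of 40 and above at 1.55 to 3.24 CPM, while for Trhr the FED-CTRL points lie below the CR20-CTRL points in each range.

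The other receptors of the growth hormone, adrenal, gonadal and lactotroph axes showed smaller differences. Ghrhr, the driver of growth hormone synthesis, had group medians of 179.5 CPM in FED-CTRL, 194.8 in FED-HFD, 177.5 in CR20-CTRL and 189.1 in CR20-HFD. Over the 4 pairwise comparisons its log2FC lay between -0.05 and 0.12, and the 95% confidence intervals together spanned -0.30 to 0.37. Gnrhr had medians of 66.9, 78.6, 65.7 and 64.4 CPM in the same order of groups and a log2FC between -0.10 and 0.21, with intervals from -0.43 to 0.55. For both genes, the groups overlapped in each comparison.

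Crhr1 and Avpr1b, which carry the signals of corticotropin releasing hormone and vasopressin to corticotrophs, had levels per length whose ranges overlapped. The medians of Crhr1 were 21.9 CPM in FED-CTRL, 21.5 in FED-HFD, 21.6 in CR20-CTRL and 20.9 in CR20-HFD, with a log2FC between -0.08 and 0.09 and intervals from -0.28 to 0.28. These limits were the narrowest of the 9 receptors. Avpr1b stood at 18.1, 19.2 and 20.8 CPM (lowest, median, highest) in FED-CTRL and at 14.1, 16.4 and 19.1 CPM in CR20-CTRL, so that 0 of 6 CR20-CTRL mice were above the FED-CTRL median.

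In CR20-CTRL vs FED-CTRL, the log2FC of Avpr1b was -0.25 (standard error 0.135, edgeR p = 0.0758, adjusted p = 0.344, exact permutation p = 0.00649). The FED-CTRL group was tight for this gene, at 19.2 ± 0.907 CPM (SD, n = 6), while CR20-HFD was wide, at 16.9 ± 5.21 CPM. edgeR uses a spread drawn from the 4 groups, and the exact permutation test uses only the pair of groups compared. The exact p-value of Avpr1b is not adjusted for the receptors and comparisons in which it was taken. Of the 2 corticotroph markers, Pomc and Tbx19, 1 was lower in CR20-CTRL at an unadjusted p-value under 0.05, against 6.68% of all genes. Mean Pomc was higher there, at 27990 CPM against 25041 in FED-CTRL, so the lower marker was Tbx19. The part of the corticotrophs in the Avpr1b difference was not tested. Drd2, through which dopamine restrains prolactin, had medians of 231.2 CPM in FED-CTRL, 212.3 in FED-HFD, 198.0 in CR20-CTRL and 208.4 in CR20-HFD, and a log2FC of -0.16 in CR20-CTRL vs FED-CTRL (edgeR adjusted p = 0.371, exact permutation p = 0.178). With 2 of 6 CR20-CTRL mice above the FED-CTRL median, its groups overlapped. Drd2 is also carried by melanotrophs, and 2 of the 4 melanotroph markers were higher in CR20-CTRL at an unadjusted p-value under 0.05, against 10.7% of all genes, with sums of 397.0 to 536.6 CPM in FED-CTRL and 458.7 to 802.3 CPM in CR20-CTRL. Their part in the Drd2 level was not tested.

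In CR20-HFD vs FED-HFD, 0 of the 9 receptors had an unadjusted p-value under 0.05, where 6.77% of all genes had one and 0.0% passed after adjustment. For the HFD over both maternal groups, Trhr was the 1 receptor with such a p-value, against 6.23% of all genes, and 0.024% of genes but no receptor passed after adjustment. The median log2FC of the receptors was 0.01 in CR20-HFD vs FED-HFD and 0.03 for the HFD over both maternal groups, against 0.00 and -0.01 for all genes.

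**Figure D4:**
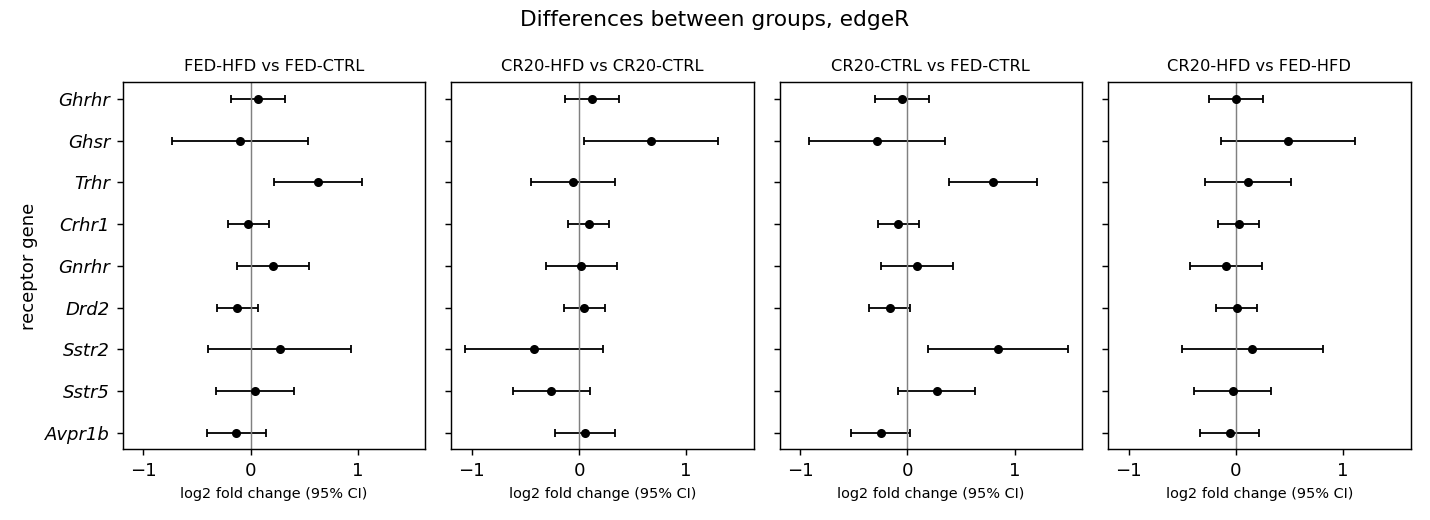
The log2FC of each receptor in the 4 pairwise comparisons by edgeR, as points with 95% confidence intervals. The intervals of Trhr (0.39 to 1.21) and Sstr2 (0.19 to 1.50) in CR20-CTRL vs FED-CTRL, of Trhr in FED-HFD vs FED-CTRL and of Ghsr in CR20-HFD vs CR20-CTRL (0.04 to 1.30) leave out 0, without adjustment for the number of genes tested.

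Ratios of transcripts within a library were taken as differences of log2 CPM, in which the scaling of the library largely cancels. At low counts it still enters through the prior count of 2 added before the logarithm. In this way 9 ratios were compared in the 4 pairwise comparisons, giving 36 tests. The log2 ratio of Trhr to Tshb, a receptor set against the hormone of its own cell type, ranged from -7.63 to -6.64 (mean -7.03 ± 0.35, SD, n = 6) in FED-CTRL and from -6.62 to -5.56 (mean -6.09 ± 0.38) in CR20-CTRL. Every CR20-CTRL mouse was above every FED-CTRL mouse, though by a narrow margin, and the means differed by 0.94 log2 units. The two-sided exact permutation p-value was 0.00216, or 0.039 after Benjamini-Hochberg adjustment over the 36 tests. That is the smallest p-value the test can give, and the ratio of Ghrhr to Ghsr described below reached it too. A single test at this p-value would not have passed after adjustment, so each of these ratios passed only together with the other. All ratios were chosen with earlier results of these data known, and the adjustment does not cover that choice. Trhr alone already separated these 2 groups, so that this ratio is not independent of the Trhr result above. In FED-HFD the ratio was -6.52 ± 0.33, which is 0.51 above FED-CTRL (exact permutation p = 0.026, adjusted p = 0.234), and in CR20-HFD it was -6.33 ± 0.34. Of the 4 groups, CR20-CTRL had both the highest mean of Trhr and the lowest mean of Tshb. Dio2, the other thyrotroph marker, was not lower there. The median log2FC of Tshb and Dio2 in CR20-CTRL vs FED-CTRL was 0.004, and neither had an unadjusted edgeR p-value under 0.05.

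The other ratio past the threshold set the 2 receptors that drive growth hormone release against each other. The log2 ratio of Ghrhr to Ghsr ranged from 6.52 to 7.42 (mean 6.79 ± 0.33, SD, n = 6) in CR20-CTRL and from 6.05 to 6.38 (mean 6.25 ± 0.13) in CR20-HFD. The groups did not overlap, and the ratio was lower in CR20-HFD by 0.54 log2 units (difference -0.54, exact permutation p = 0.00216, adjusted p = 0.039). In FED mice the ratio spread over a wider range, from 5.98 to 7.10 in FED-CTRL and from 5.64 to 8.07 in FED-HFD, and the difference of 0.28 had an exact permutation p-value of 0.504. Ghsr moved with the animal numbers as given above, and the part of this in the ratio was not tested.

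With a mouse of the compared groups left out, neither ratio passed the adjusted threshold. The smallest p-value that an exact test of 5 against 6 mice can give is 0.00433, and the groups did not overlap in any of the 12 such tests of each ratio, with differences of 0.82 to 1.04 for Trhr to Tshb and of -0.60 to -0.41 for Ghrhr to Ghsr, but that p-value adjusted over the 36 tests is 0.0779. The next smallest p-value was that of Gnrhr to Fshb in CR20-HFD vs CR20-CTRL, where the log2 ratio was higher by 0.22 (exact permutation p = 0.0238, adjusted p = 0.234). The remaining ratios, of Ghrhr to Sstr2 and to Gh, Sstr2 to Sstr5, Crhr1 to Avpr1b and to Pomc, and Drd2 to Prl, had adjusted p-values of 0.39 or more.

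**Figure D5:**
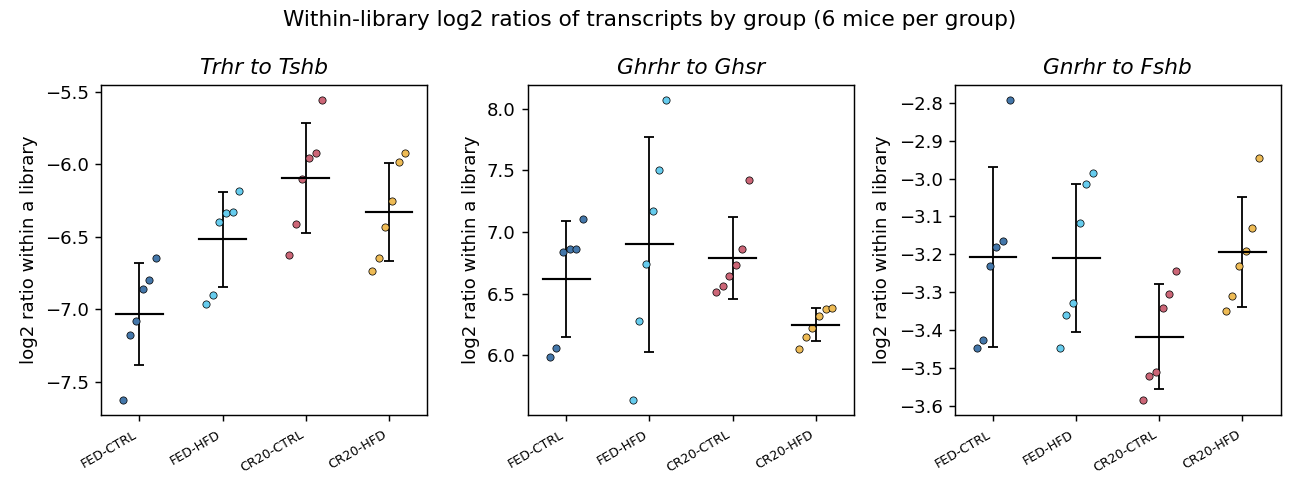
Log2 ratios within each library for Trhr to Tshb, Ghrhr to Ghsr and Gnrhr to Fshb in the 4 groups, with 1 point per mouse, a line at the mean and a bar of 1 SD (6 mice per group). The Trhr to Tshb ratios of CR20-CTRL (-6.62 to -5.56) lie above those of FED-CTRL (-7.63 to -6.64), and the Ghrhr to Ghsr ratios of CR20-HFD (6.05 to 6.38) below those of CR20-CTRL (6.52 to 7.42).

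The genes most like each receptor were sought by the Pearson correlation of log2 CPM over the 24 pituitaries, with group means removed, among 15887 named genes with a mean of at least 10 counts. For Gnrhr the first was Fshb, the beta subunit of follicle-stimulating hormone made by the same cell type, at 0.83, followed by Lrrc8c at 0.77 and Kcnk1 at 0.76. Fshb was also the first by rank correlation (0.82) and without removal of the group means (0.80). Other gonadotroph genes did not share this, with a Pearson correlation to Gnrhr of -0.14 for Nr5a1 and 0.28 for Cga. Without the 2 mice farthest from the Gnrhr median the correlation was 0.75, and within the animal-number ranges it was 0.78 in the 11 mice under 20 and 0.72 in the 8 mice of 40 and above. These libraries share their depth and cell mix across genes, so the values are descriptions. The genes named as most like a receptor were picked as the highest of 15887 correlations, and no test against chance was made.

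For no other receptor was a hormone gene of its cell type among the 3 genes with the highest correlation. The correlations with Ghsr were highest for Lrrn1 (0.88), Ptk2 (0.84) and Gnl3l (0.83), and that of Lrrn1 fell to 0.64 and 0.48 within the ranges under 20 and of 40 and above. Trhr was most like Rbm45 (0.77), Emc3 (0.69) and Utp20 (0.67), and Ghrhr most like Dnah9 (0.78), Snhg18 (0.78) and Lrmda (0.77). The Dnah9 value dropped to 0.46 without the 2 mice farthest from the Ghrhr median.

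For the corticotroph receptors, the closest genes were Pcdh12 (0.83), Syn2 (0.81) and Ptpn11 (0.78) for Crhr1, and Ptgir (0.74), Morc4 (0.72) and Mmp24 (0.72) for Avpr1b. Ptgir had a mean of 10.04 counts, close to the limit of 10. Drd2 went with Serpinh1 (0.82), Stx18 (0.79) and Ywhah (0.77). Sstr2 went with Magee1 (0.82), Eif2s1 (0.81) and Tars1 (0.81), and Sstr5 with Rtn4rl1 (0.85), Garem2 (0.83) and Gpat4 (0.83). The gene lists depended on the measure. By rank correlation, 0 of the 3 genes stayed among the first 3 for Ghrhr and Ghsr, 1 for Trhr, Gnrhr and Avpr1b, 2 for Crhr1, Drd2 and Sstr5, and 3 for Sstr2.

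Among the receptors themselves, the 36 pairs were compared in the same way, with permutation p-values. Crhr1 and Avpr1b, both of corticotrophs, had the highest Pearson's r, at 0.60 (n = 24, permutation p = 0.00195, adjusted p = 0.0702), and a Spearman's rho of 0.54 (permutation p = 0.00798, adjusted p = 0.123). Without the 2 mice farthest from the Crhr1 median r was 0.48, and within the ranges of animal numbers it was 0.62 under 20 and 0.28 from 40. The corticotroph markers were split, with r for Crhr1 and Avpr1b of -0.07 and -0.35 for Pomc and of 0.32 and 0.27 for Tbx19. For melanotroph markers these were -0.57 and -0.67 (Esm1), -0.51 and -0.50 (Oacyl), -0.54 and -0.42 (Pcsk2), and -0.09 and -0.04 (Pax7). Somatotroph markers gave 0.44 and 0.68 (Rxrg), 0.10 and 0.45 (Pappa2), and -0.003 and 0.16 (Gh). Lactotroph markers gave 0.43 and 0.46 (Prl), -0.30 and -0.11 (Agtr1a), and -0.09 and -0.29 (Angpt1). The markers that went with the 2 receptors were therefore not those of corticotrophs alone. The part of the cell mix in the Crhr1 and Avpr1b correlation was not tested. Sstr2 and Sstr5 had an r of 0.55 (permutation p = 0.00587, adjusted p = 0.106) and a rho of 0.61 (permutation p = 0.0021, adjusted p = 0.0756), with 0.57 without the 2 farthest mice and 0.69 and 0.67 within the ranges. Ghsr and Trhr had an r of 0.52 (permutation p = 0.00937, adjusted p = 0.112), which was -0.20 under 20 and 0.77 from 40. None of the 36 pairs passed the adjusted threshold of 0.05.

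The releasing hormones that bind these receptors are made in the hypothalamus, and most of their transcripts were near the smallest detectable number in the pituitaries. Ghrh and Crh had at most 4 counts in any library, Trh at most 3, Sst at most 5 and Gnrh1 at most 13. Of 17 ligand genes, 6 passed the filter on low counts, among them Avp with 99 to 432 counts and Oxt with 48 to 151, the products of neurons that end in the posterior lobe. Galanin (Gal) was the 1 of these 6 with an unadjusted p-value under 0.05 in CR20-CTRL vs FED-CTRL, against 17.3% of all genes, with a log2FC of 1.10 (edgeR adjusted p = 0.233), and CR20-CTRL mouse 33, without which the log2FC of Sstr2 was lowest, held the highest count of 840. Gal also had an interaction p-value under 0.05 (log2FC -1.57, adjusted p = 0.412), as did 11.0% of all genes.

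The hormone genes whose release these receptors govern gave few differences. The list of 7 was Gh, Prl, Tshb, Cga, Fshb, Pomc and Lhb, the last with the counts described above. In FED-HFD vs FED-CTRL 1 of the 7 had an unadjusted p-value under 0.05, against 9.64% of all genes, namely Cga, the common alpha subunit, with a log2FC of 0.31 (edgeR adjusted p = 0.382). Fshb was the 1 with such a p-value in CR20-CTRL vs FED-CTRL, at 0.31 (edgeR adjusted p = 0.257), and in the interaction, at -0.43 (adjusted p = 0.446), against 17.3% and 11.0% of all genes. Of the 3 gonadotroph markers in CR20-CTRL vs FED-CTRL, Fshb was higher and Nr5a1 lower at such a p-value, against 10.7% and 6.68% of all genes. In the other comparisons 0 of the 7 hormone genes had an unadjusted p-value under 0.05, against 6.23% to 13.2% of all genes.

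Of 31 further receptors for hypothalamic peptides and amines, 17 passed the filter. By mean RPKM, Adcyap1r1, the receptor for pituitary adenylate cyclase activating peptide, stood at 7.80 and the somatostatin receptors Sstr3 and Sstr1 at 7.62 and 3.69, so that Sstr3 was the somatostatin receptor with the highest mean level. In FED-HFD vs FED-CTRL, 0 of the 17 were higher and 2 lower at an unadjusted p-value under 0.05, namely Adcyap1r1 (log2FC -0.22, edgeR adjusted p = 0.409) and the melanocortin receptor Mc3r (-1.04, adjusted p = 0.444), against 4.41% of all genes higher and 5.24% lower. The oxytocin receptor Oxtr had an interaction of -1.17 (adjusted p = 0.443). In the other pairwise comparisons, 0 of the 17 had an unadjusted p-value under 0.05, against 6.77% to 17.3% of all genes.

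The receptors that bring the feedback of peripheral hormones to the pituitary form a list of 14, all tested. In CR20-CTRL vs FED-CTRL, 5 were higher and 0 lower at an unadjusted p-value under 0.05, against 10.7% of all genes higher and 6.68% lower. They were the prolactin receptor Prlr (log2FC 0.37, edgeR adjusted p = 0.109), the mineralocorticoid receptor Nr3c2 (0.37, adjusted p = 0.156), the glucocorticoid receptor Nr3c1 (0.36, adjusted p = 0.202), the activin receptor Acvr2a (0.35, adjusted p = 0.235) and the thyroid hormone receptor Thrb (0.23, adjusted p = 0.276). The median log2FC of the list was 0.26, and that of all genes 0.01. In CR20-HFD vs CR20-CTRL, which shares the CR20-CTRL mice, Prlr (-0.32, adjusted p = 0.590) and Nr3c2 (-0.32, adjusted p = 0.623) were lower at an unadjusted p-value under 0.05, as were 4.53% of all genes. None of the 14 passed after adjustment in any comparison.

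Of 33 genes for G proteins, their effectors and their regulators, 32 were tested. The gene with the smallest p-value was Adcy2, an adenylyl cyclase, in CR20-HFD vs FED-HFD, with a log2FC of 0.50 (standard error 0.115, edgeR adjusted p = 0.388). With the HFD, its log2FC was -0.35 in the sons of FED dams (edgeR adjusted p = 0.297) and 0.30 in those of CR20 dams (adjusted p = 0.603), and the interaction was 0.65 (standard error 0.162, adjusted p = 0.314). In CR20-CTRL vs FED-CTRL, 4 of the 32 genes were higher and 2 lower at an unadjusted p-value under 0.05, shares close to the 10.7% and 6.68% of all genes. Among them were Gnaq, the G protein subunit of the calcium-mobilizing receptors, at 0.27 (adjusted p = 0.153), Plcb4, a phospholipase C, at 0.25 (adjusted p = 0.160), and the adenylyl cyclase Adcy5 at -0.23 (adjusted p = 0.156). The list medians were within 0.05 of those of all genes in each of the 4 pairwise comparisons, and 0 of the 32 passed after adjustment.

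Outside the pituitary most receptors were near or below the smallest detectable number. In liver, 8 of the 9 had at most 2 counts in any of the 24 libraries, and Sstr2 had 1 to 13. In eWAT, Ghsr, Crhr1, Sstr5 and Avpr1b had at most 1 count, Trhr at most 3, Drd2 at most 5 and Gnrhr at most 6. Ghrhr and Sstr2 reached higher counts in single eWAT libraries, whose values are given in the closing section.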

How the data were processed

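The authors made stranded libraries, for which the methods name both a total RNA and an mRNA kit and the labels the former. Per the labels and methods they trimmed the reads with Trimmomatic, aligned them with STAR to GRCm39 and counted them per Ensembl gene with featureCounts. The deposited counts are whole numbers without normalization, and the strand setting is not given in the sources used here. Gene names, positions and exonic lengths came from GENCODE M39, which matched 54749 of the 55416 rows and left 667 without a name.

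The 24 pituitary libraries were fitted together with edgeR 4.0.16 in R 4.3.3, with a mean for each group, filterByExpr, TMM factors and the quasi-likelihood test. Two-sided p-values were adjusted after Benjamini and Hochberg over 16657 genes, with a threshold of 0.05. Log2 CPM used a prior count of 2, and RPKM is that CPM scale without the logarithm divided by exonic kilobases. Single values were compared by exact permutation over 924 divisions of 12 mice. Alternatives were limma 3.58.1 voom with and without quality weights, DESeq2 1.42.0, other filters and size factors, a robust fit, the groups compared alone, the range of animal numbers as a covariate, and each mouse left out in turn. The fit was tested on simulated data. The test of the range term, its within-range values and the promoter motifs were added after the data were seen. The receptors, ratios and gene lists were chosen with earlier results of these data known. Named genes are the 9 receptors, the 3 genes most like each, and the hormone genes, with up to 5 genes of a list and comparison by smallest unadjusted p-value under 0.05.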

Additional observations from a re-analysis of the deposited data

Results flagged for a closer look

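In each group of 6 mice, the highest and the lowest value were compared with the rest, for the log2 CPM of the receptors and for the 9 ratios, in 72 groups in all. A gap to the nearest mouse of more than 0.625 of the group's range marks a mouse far from the others, and chance marks about 1 group in 20. Ghrhr of CR20-HFD mouse 7 was low at 6.80 log2 CPM, where the other 5 mice had 7.52 to 7.93 (gap share 0.637). Gnrhr of FED-HFD mouse 10, the library with the adipocyte markers, was low at 5.56 log2 CPM against 6.21 to 6.52 (0.677). Sstr2 of FED-CTRL mouse 15 was low at 0.26 log2 CPM against 1.30 to 1.88 (0.646). The log2 ratio of Sstr2 to Sstr5 was high in CR20-HFD mouse 46, at -2.001 against -2.96 to -2.61 (0.634), and that of Drd2 to Prl in CR20-CTRL mouse 47, at -5.34 against -5.83 to -5.70 (0.735).

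Counts of receptors in the other tissues, which no comparison above uses, exceeded the level of the FED-CTRL libraries in 4 cases. Ghrhr in eWAT had 233 counts in CR20-CTRL mouse 5 (20.1 CPM of the library total), 97 in CR20-CTRL mouse 4 and 25 in CR20-HFD mouse 7, and at most 1 in the other 21 libraries. Sstr2 in eWAT had 217 counts in FED-HFD mouse 23 (10.8 CPM), and 9 libraries were above the highest FED-CTRL count of 2. Drd2 in eWAT had 5 counts in FED-HFD mouse 13. Sstr2 in liver had up to 13 counts against up to 12 in FED-CTRL, a difference of 1 count.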

How the results depend on the processing

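The edgeR test called 0 receptors in each of the 7 comparisons, and so did each alternative, except that limma's voom with quality weights called 1 (Trhr) in CR20-CTRL vs FED-CTRL. With each mouse left out in turn, 0 to 1 receptors were called there (1 without FED-CTRL mouse 42 or CR20-CTRL mouse 4) and 0 in the others. DESeq2's independent filtering left an adjusted p-value for 7 of the 9 receptors in that comparison, not for Trhr and Ghsr, and for 6 in the interaction, not for Trhr, Ghsr and Sstr2. Of the 36 ratio tests, 2 passed, and 0 to 2 with a mouse left out, 2 being kept when the mouse was of FED-HFD. Each of these 2 ratios, with any mouse of its own comparison left out, gave p = 0.00433 in the exact test, the smallest that 5 mice against 6 allow, and an adjusted p of 0.0779. With 0.5 added to the counts, 2 passed.

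The 12 pairs of receptor and comparison with the smallest p-values, by edgeR or the exact test, kept the sign of their log2FC in all fits, and 22 of the other 51 pairs changed it in at least 1, all with a log2FC of at most 0.15 in size. The 0 genes called in CR20-CTRL vs FED-CTRL became 284 by voom with quality weights, 350 by DESeq2, 50 without a filter and 0 to 540 with a mouse left out, and the cause was not tested. For FED-HFD vs FED-CTRL, 0 became 19 by DESeq2, 55 without a filter and 0 to 17 with a mouse left out. DESeq2 called 1 gene in CR20-HFD vs CR20-CTRL, 2 in the interaction, 29 for CR20 vs FED over both diets and 31 for the HFD over both maternal groups, where edgeR called 0, 0, 0 and 4. Without a filter these were 7, 0, 4 and 39, and CR20-HFD vs FED-HFD gave 16. For CR20 vs FED over both diets 0 to 16 genes were called with a mouse left out, and for the HFD over both maternal groups 2 to 14, with 1 by voom with or without quality weights, 9 with DESeq2 size factors, and 2 with the animal-number covariate or the robust fit.

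No paired analysis was possible because the 4 pituitary groups hold different mice. The 3 rarest receptors rest on at most 189 counts per library, and the groups of 6 mice leave intervals of over 1 log2 unit for Ghsr and Sstr2.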
